A study of Mus musculus with 12 samples.

Results

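NuRD, BAF and corepressor complex genes are the genes of chromatin-modifying complexes with which the protein BCL11A is known to associate. The 43 genes were listed by complex membership, from the nucleosome remodelling and deacetylase complex NuRD, the SWI/SNF-type remodeller BAF, the corepressor complexes NCoR, SIN3 and CoREST, and the corepressor Bcor. Of the 43, 38 were represented by a probe set annotated to that gene alone, among 17097 genes with such a probe set, and all 38 were among the 11223 genes tested. Hdac3, Ncor1, Smarca4, Arid1b and Ss18 were not analysed here. The listing rule used no measured value, although the set was chosen for description with earlier results of these data known.

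Expression was measured with Affymetrix perfect-match arrays on total RNA of 3 murine acute myeloid leukaemia lines, 4 arrays each. TB13 and TB14 cells expressed both Trib1, a pseudokinase that drives degradation of C/EBP alpha, and Bcl11a, a zinc-finger transcriptional repressor, whereas the Trib1 line expressed Trib1 without introduced Bcl11a. All lines were kept untreated in IMDM with fetal bovine serum and interleukin-3, so Trib1 and this cytokine are shared by every group. Each group is a single named line, nothing in the labels says that its arrays came from separate cultures, and p-values therefore measure the spread between these arrays, which may be technical.

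NuRD couples an ATP-dependent nucleosome remodeller with histone deacetylases and is recruited to chromatin by repressors of the BCL11 family. NCoR, SIN3 and CoREST bring deacetylases or the demethylase LSD1 to DNA-bound factors, among them regulators of myeloid differentiation. BAF remodellers slide or evict nucleosomes to open chromatin, and their subunits are often altered in cancers, leukaemias included.

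The TB13 arrays stood apart. The 18 probe sets for hybridization controls, transcripts added to each hybridization in the standard protocol, had a median log2 difference from the Trib1 arrays of -1.11 on TB13 arrays, with 17 of 18 lower, and of 0.0012 on TB14 arrays. A control for nonspecific binding averaged 529.9 on TB13, 196.7 on TB14 and 195.8 on Trib1 arrays. The median log2 difference over all tested genes in the deposited values was -0.39 in TB13 and -0.0024 in TB14. Arrays were therefore scaled to 1 common distribution (quantile scaling), intensities below are on that scale, and TB13 results are given with what other scalings returned. Ptprc, the pan-leukocyte antigen, averaged 1647 in TB13, 1282 in TB14 and 1848 in Trib1, and the myeloid factor gene Cebpa 1221 in TB13, 1057 in TB14 and 1294 in Trib1. All 8 myeloid markers passed the filter, and the lines differed in them: Mpo, Csf3r and Lyz2 were called higher and Ptprc, Spi1, Cebpa, Itgam and Fcgr3 lower in both Bcl11a lines on the quantile scale. Mpo, a neutrophil granule enzyme gene, averaged 1044 in TB13, 2214 in TB14 and 195 in Trib1, and the integrin gene Itgam 30.3 in TB13, 132 in TB14 and 224 in Trib1. Endothelial Cdh5 averaged 13.1 in TB13, 11.6 in TB14 and 11.6 in Trib1, and stromal Col1a1 8.29 in TB13, 8.17 in TB14 and 8.20 in Trib1. Neither gene passed the filter on dim probe sets. Pecam1, which endothelium shares with leukocytes, averaged 417 in TB13, 502 in TB14 and 685 in Trib1, and the stromal receptor gene Pdgfrb 57.7 in TB13, 73.8 in TB14 and 79.2 in Trib1. The T-cell gene Cd3e averaged 231 in TB13, 59.0 in TB14 and 63.0 in Trib1, and Cd3g, another T-cell gene, 13.2 in TB13, 14.9 in TB14 and 65.6 in Trib1. The B-cell gene Ms4a1 averaged 38.1 in TB13, 20.2 in TB14 and 20.4 in Trib1, and the haemoglobin gene Hba-a1 1693 in TB13, 1360.2 in TB14 and 768 in Trib1. Whether other cells contribute to any line was not tested. The probe sets of Bcl11a read 6.70 to 21.5 and those of Trib1 14.4 to 40.1 in the deposited intensities over all arrays, and do not check the labels. The brightest Bcl11a probe set averaged 13.9 in TB13, 14.8 in TB14 and 18.8 in Trib1 on the quantile scale and did not pass the filter. It was thus not higher in the lines labelled with Bcl11a. In RNA from a whole culture, fewer cells of a kind and less RNA per cell cannot be told apart.

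Most complex genes were slightly higher in TB14 than in Trib1 cells. Of the 38 genes, 22 were called higher and 3 lower at an adjusted p under 0.05 (limma, Benjamini-Hochberg over all genes tested), where 23.0% of all tested genes were called higher and 20.9% lower. By the brightest probe set of each gene, which these counts use, changes were small. Of the 38, 0 were called with a change of 1.5-fold or more in either direction, against 2.49% of all tested genes for rises and 4.37% for falls. The widest was 1.41-fold. Other probe sets of these genes that passed the filter ran from -0.45 for Mta3 to 0.81 for Smarcc1 in TB14, with 0.63 and 0.64 for Tbl1x. The median log2 change was 0.17 over the 38 genes and -0.0049 over all genes, and 29 of the 38 had a positive sign. Of the 22 genes called higher, 21 were called higher under each of 5 scalings, and Smarca2, Phf10 and Bcl7b were called lower under each. Shares of all genes called under each of the 5 scalings were not computed. Members were bright: 22 of the 38 lay among the 2806 brightest of the tested genes, where 16 were called higher and 1 lower, against 40.8% higher and 32.0% lower for all genes of that brightness. Fitted without the TB13 arrays, 27 of the 38 were called higher and 5 lower, against 33.2% and 30.7% of all genes.

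**Figure D1:**
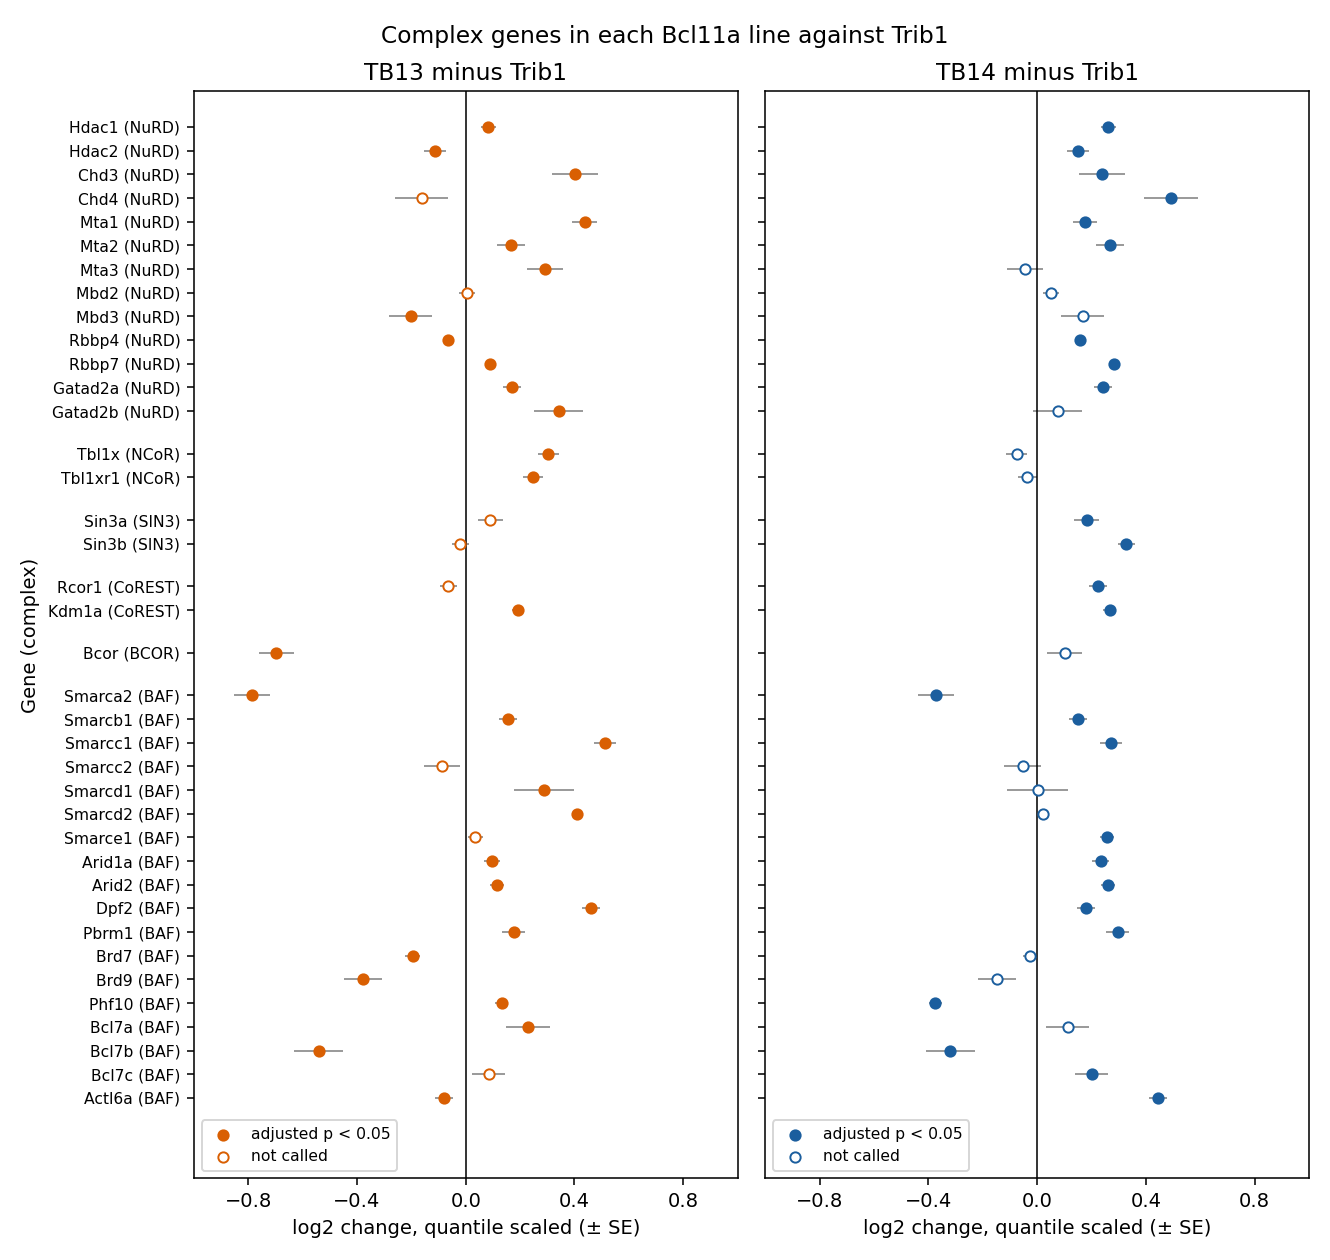
Log2 change of quantile-scaled intensity for the 38 complex genes, by complex, in TB13 (left) and TB14 (right) against Trib1; bars are standard errors from the linear model over 12 arrays and filled points were called. TB14 changes run from -0.37 to 0.49 and TB13 changes from -0.79 to 0.51.

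In TB13, 21 of the 38 genes (55.3%) were called higher and 9 (23.7%) lower against Trib1 on the quantile scale, where 42.0% and 38.3% of all tested genes were, and these counts turned with the scaling. The deposited values gave 2 higher and 35 lower (29.0% and 63.6% of all genes), and calibration on the hybridization controls gave 30 higher and 0 lower (73.8% and 11.4% of all genes), with 0 lower also at an unadjusted p under 0.05 (limma). Under all 5 scalings, only Smarcd1 and Smarcd2 were higher, and only Smarca2 and Brd7 lower, while the other 34 genes changed sign. Shares of all genes that kept their sign were not computed. Smarcd1 lay among the 2806 dimmest tested genes, where 53.7% were called higher and 23.9% lower in TB13 on the quantile scale. Of the 22 members among the 2806 brightest, 14 were called higher and 4 lower, against 36.9% and 42.6% of all genes that bright. Smarca2 and Bcor were the genes called lower by 1.5-fold or more in TB13 and 0 were called higher by as much, against 12.6% and 13.0% of all genes. Both comparisons use the same Trib1 arrays, so they are not independent of each other. On the quantile scale, TB14 and Trib1 arrays did not overlap for 30 of the 38 genes and for 55.9% of all tested genes. For TB13 and Trib1 these were 22 of the 38 and 71.5%, and for TB14 and TB13 24 of the 38 and 72.1%. Arrays without overlap, given below for single genes, therefore do not by themselves set a gene apart.

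**Figure D2:**
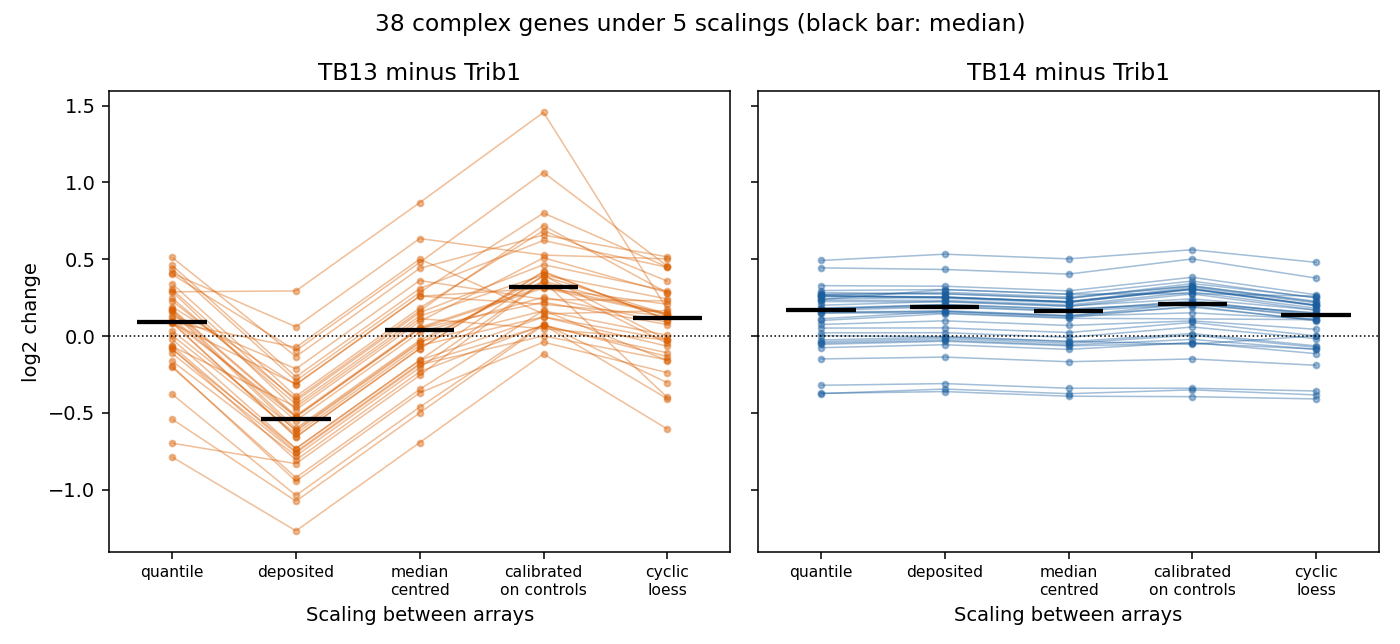
Log2 change against Trib1 of each of the 38 genes (thin lines) under 5 ways of scaling the arrays, with the median as a black bar, for TB13 (left) and TB14 (right). TB13 medians run from -0.54 on the deposited values to 0.32 after calibration on controls, and TB14 medians from 0.14 to 0.21.

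The 3 genes called lower in TB14 and the 2 with the widest rises there are shown with the 100 bases upstream of their annotated start, because the complexes act at promoters. The sequences are from RefSeq (GRCm38.p6), read 5′ to 3′ on the gene's strand, with CpG dinucleotides in capitals. The subunit Mbd2 binds methylated CpG, and methylation was not measured. Smarca2 lies at chr19:26605060-26605159 (plus strand, 9 CpG), Phf10 at chr17:14961261-14961360 (minus strand, 23 CpG), Bcl7b at chr5:135168272-135168371 (plus strand, 14 CpG), Chd4 at chr6:125096063-125096162 (plus strand, 8 CpG, one of 2 annotated starts) and Actl6a at chr3:32708446-32708545 (plus strand, 10 CpG).
Smarca2: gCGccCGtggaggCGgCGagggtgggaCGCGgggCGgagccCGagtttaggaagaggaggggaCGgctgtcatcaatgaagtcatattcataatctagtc
Phf10: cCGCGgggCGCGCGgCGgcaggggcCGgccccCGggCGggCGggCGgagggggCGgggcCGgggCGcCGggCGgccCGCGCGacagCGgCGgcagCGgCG
Bcl7b: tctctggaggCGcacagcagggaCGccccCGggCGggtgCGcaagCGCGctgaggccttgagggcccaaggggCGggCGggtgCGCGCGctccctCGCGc
Chd4: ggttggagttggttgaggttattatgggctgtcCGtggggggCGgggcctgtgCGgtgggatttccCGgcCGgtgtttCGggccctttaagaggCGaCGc
Actl6a: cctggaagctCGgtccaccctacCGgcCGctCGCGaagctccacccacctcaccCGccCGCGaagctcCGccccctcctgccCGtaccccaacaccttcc
Windows from 250 bases before to 50 after the start were at hand for 31 of the 38 genes (38 windows), and held a median of 29 CpG (range 4 to 62), against a median of 7 over 32851 windows of 27025 genes. Those 27025 genes, also used for the motif shares below, were not limited to tested genes, whereas the 31 had all passed the filter. The 2 sets therefore differ in more than complex membership. The motif TGACCA, known as a BCL11A recognition sequence, was found on either strand in 1 of the 31 genes, Smarcd1, and in 15.4% of all genes. GAGGAAG, a core of PU.1 binding sites, was found in 4, which were Gatad2b, Mta1, Smarcb1 and Tbl1xr1, and also in 15.4% of all genes. The motifs cannot overlap each other on either strand, and a match only says that the letters are present.

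Among the catalytic subunits of NuRD, the remodelling ATPase Chd4 had the widest difference in TB14. It read 165, 102, 121 and 128 in TB13, 223, 214, 183 and 212 in TB14 and 148, 146, 145 and 137 in Trib1 in scaled intensity. All TB14 arrays lay above all Trib1 arrays, while the TB13 arrays spread across the Trib1 range and beyond it on both sides. The log2 change was 0.49 ± 0.098 (SE, n = 4 per line) in TB14, a 1.41-fold difference with an adjusted p of 0.000515 by limma, and -0.16 with an adjusted p of 0.137 in TB13, where calibration on controls turned it to 0.36 and leaving out TB13 array 1 moved it to -0.28. Chd3, the alternative ATPase, read 88.2, 132, 109 and 118 in TB13, 94.6, 97.7, 98.5 and 99.6 in TB14 and 79.9, 79.2, 81.0 and 83.3 in Trib1. TB14 and Trib1 did not overlap, and the TB14 change of 0.24 (adjusted p = 0.0297, limma) lost its call, at adjusted p values from 0.0609 to 0.0727, when any one of TB14 arrays 2, 3 and 4 or Trib1 arrays 1, 2 and 3 was left out. The deacetylase Hdac1 read 1137, 1079.9, 1038 and 1121 in TB13, 1283, 1199, 1237 and 1240.0 in TB14 and 1019, 1013, 1048 and 1047 in Trib1. TB14 stood clear of Trib1, whereas the lowest TB13 array lay inside the Trib1 range, and the TB14 log2 change was 0.26 (adjusted p = 4.33e-07, limma). Hdac2, the paralogous deacetylase, read 527, 577, 630.1 and 548 in TB13, 703, 687, 681 and 674 in TB14 and 619, 627, 594 and 628 in Trib1. TB14 again stood clear of Trib1, which overlapped with TB13. The log2 change of Hdac2 was 0.15 in TB14 (adjusted p = 0.00586, limma), a call not made after cyclic loess scaling, and its TB13 value of -0.11, not called without TB13 array 1 or 4, became 0.00059 after calibration on controls.

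NuRD's histone chaperones and scaffolds other than Mta3 were also higher in TB14. Rbbp7, which binds histones, read 2132, 2183, 2145 and 2208 in TB13, 2453, 2449.9, 2524 and 2488 in TB14 and 2064, 2036, 2064 and 1976 in Trib1. TB14 lay above TB13, and TB13 above Trib1, without overlap. Rbbp7 averaged 2167 ± 35.0 in TB13, 2479 ± 34.5 in TB14 and 2035 ± 41.4 in Trib1 (SD, n = 4 each), a TB14 log2 change of 0.28 (adjusted p = 4.41e-10, limma). Its paralogue Rbbp4 read 1112, 1078, 1076 and 1063 in TB13, 1262, 1266, 1262 and 1279.6 in TB14 and 1138, 1125, 1156 and 1117 in Trib1. TB14 was highest and TB13 lowest, without overlap. Rbbp4 was called higher in TB14 (0.16) and lower in TB13 (-0.066), although centring arrays on the median turned the TB13 value to 0.11. The MTA proteins are scaffolds that hold the deacetylases. Mta1 read 207, 199, 202 and 191 in TB13, 162, 163, 166 and 167 in TB14 and 146, 153, 138 and 141 in Trib1. Mta2 read 344, 311, 308 and 371 in TB13, 358, 351, 386 and 339 in TB14 and 289, 296, 297 and 297 in Trib1. Mta3 read 359, 266, 289 and 319 in TB13, 242, 245, 238 and 235 in TB14 and 233, 252, 247 and 262 in Trib1. All TB14 arrays were above all Trib1 arrays for Mta1 and Mta2 and inside or near their range for Mta3, and TB13 was above Trib1 for each. Mta1 and Mta2 were called higher in TB14 by 0.17 and 0.27, and Mta3 was not called (-0.045, adjusted p = 0.659, limma). A second Mta3 probe set, averaging 201 in TB13, 167 in TB14 and 232 in Trib1, gave -0.45 in TB14 and -0.20 in TB13. Gatad2a, which bridges the deacetylase and remodelling modules, was called higher in TB14 (0.24), a value that averaging its probe sets turned to -0.012, whereas Gatad2b (0.076) was not. A second Gatad2b probe set gave 0.43 in TB14 and -0.21 in TB13. Mbd2, which binds methylated CpG, read 585, 569, 628 and 567 in TB13, 599.6, 611, 603 and 612 in TB14 and 576, 589, 593 and 580.3 in Trib1. Mbd3, its relative that defines a separate form of NuRD, read 198, 139.9, 158 and 193 in TB13, 226, 220.3, 221 and 230.3 in TB14 and 193, 194, 197 and 209 in Trib1. Ranges of TB14 and Trib1 lay side by side without overlap for Mbd2 and Mbd3, and neither was called (0.052 and 0.17), although both were when the TB13 arrays were left out of the fit (0.049 and 0.17, adjusted p = 0.0134 and 1.53e-05, limma). In all, by the brightest probe set, 9 of 13 NuRD genes were called higher and 0 lower in TB14. Of all tested genes, 23.0% were called higher and 20.9% lower. Among the 13, 0 were also lower at an unadjusted p under 0.05 (limma), and 12 had a positive sign. In TB13, 8 were called higher and 3 lower on the quantile scale (42.0% and 38.3% of all genes), Mbd3 at -0.20 losing its call without TB13 array 2 or 3 or Trib1 array 4, and the deposited values turned Mta1, Mta2, Mta3 and Gatad2b, higher by 0.44, 0.17, 0.29 and 0.34 on the quantile scale, to -0.29, -0.60, -0.48 and -0.39.

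Of the remaining corepressor complexes, SIN3, CoREST and NCoR were each measured through 2 genes. Both SIN3 scaffolds were called higher in TB14, with Sin3a at 0.18 and Sin3b at 0.33 on the log2 scale. Sin3a read 217, 191, 199 and 202 in TB13, 209, 213, 226 and 217 in TB14 and 187, 181, 199.6 and 189 in Trib1. Sin3b read 431, 447, 445 and 456 in TB13, 579.9, 572, 573 and 553 in TB14 and 467, 453, 426 and 459 in Trib1. TB14 arrays were above Trib1 arrays for both genes, while TB13 and Trib1 arrays overlapped. Both CoREST genes were called higher in TB14 as well, the scaffold Rcor1 by 0.22 and the histone demethylase gene Kdm1a, which encodes LSD1, by 0.27 (adjusted p = 4.5e-08, limma). The exchange factors Tbl1x and Tbl1xr1 of NCoR were not called in TB14 (-0.075 and -0.036), where the other Tbl1x probe sets gave 0.63 and 0.64. They were called higher in TB13 on the quantile scale (0.30 and 0.25) but lower on the deposited values (-0.42 and -0.44).

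Bcor, a corepressor first known as a partner of BCL6, separated the 2 Bcl11a lines. It read 40.0, 49.4, 48.0 and 48.3 in TB13, 92.6, 88.6, 93.0 and 85.7 in TB14 and 79.0, 84.4, 87.9 and 80.9 in Trib1. Every TB13 array was below every other array, and TB14 overlapped with Trib1. The TB13 log2 change against Trib1 was -0.70 ± 0.065 (SE), 1.62-fold lower with an adjusted p of 4.95e-08 by limma, but it was 0.36 after calibration on controls. TB14 exceeded TB13 by 0.80 (1.74-fold), which the same calibration turned to -0.24.

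Smarca2, one of the mutually exclusive ATPases of BAF, was the complex gene with the lowest value against Trib1 in TB13 and was lower in TB14 too. It read 96.2, 88.0, 88.1 and 72.3 in TB13, 122, 116, 118 and 117 in TB14 and 153, 151, 164 and 162 in Trib1. The 3 lines did not overlap, with TB13 lowest and Trib1 highest. The log2 change was -0.79 ± 0.067 in TB13 (1.73-fold lower, adjusted p = 1.74e-08) and -0.37 ± 0.067 in TB14 (1.29-fold lower, adjusted p = 0.000202; SE, n = 4, limma). The sign was negative under all 5 scalings in both lines, and the call was lost in TB13 after calibration on controls, at -0.12. A second, dimmer Smarca2 probe set, averaging 19.2 in TB13, 38.2 in TB14 and 35.6 in Trib1, gave -0.60 in TB13 and 0.08 in TB14.

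Among core BAF subunits, Smarcc1, a scaffold of the complex, read 669, 581, 621 and 576 in TB13, 535, 507, 504 and 517 in TB14 and 417, 428, 416 and 437 in Trib1. The 3 lines did not overlap, with Trib1 lowest. The log2 change was 0.27 in TB14 (adjusted p = 2.35e-05, limma) and 0.51 in TB13, which the deposited values turned to -0.13, and a second probe set gave 0.81 in TB14 and -0.14 in TB13. Its paralogue Smarcc2 read 132, 136, 123 and 162 in TB13, 134, 148, 144 and 138 in TB14 and 142, 152, 147 and 146 in Trib1. All 3 lines overlapped for Smarcc2, and it was called in neither line (-0.086 in TB13 and -0.054 in TB14). Smarcb1, a tumour suppressor and core subunit, and the DNA-binding Smarce1 were called higher in TB14 (0.15 and 0.26), and Smarcd1, an adaptor for transcription factors, was not (0.0020). A dimmer second Smarce1 probe set gave -0.094 in TB14 and -0.53 in TB13. Smarcd1 was the dimmest complex gene and read 44.9, 35.5, 39.5 and 68.7 in TB13, 34.9, 35.6, 36.0 and 34.8 in TB14 and 35.1, 35.8, 33.7 and 36.7 in Trib1. One TB13 array, the fourth, stood above the rest, and the TB13 change of 0.29 was 0.13 without it and lost its call without Trib1 array 1 or 3 (adjusted p = 0.0502 and 0.0617, limma). Smarcd2, a subunit needed for granulocyte development, averaged 1344 ± 14.8 in TB13, 1024 ± 18.9 in TB14 and 1009 ± 11.3 in Trib1 (SD, n = 4 each). TB13 was above both other lines on every array, with a log2 change of 0.41 (adjusted p = 4.46e-12, limma) that kept its call under all 5 scalings, down to 0.060 on the deposited values, and the TB14 value was 0.021 (adjusted p = 0.409, limma).

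Subunits that define BAF variants went both ways in TB14. Arid1a, of canonical BAF, Arid2 and Pbrm1, of the PBAF form, and Dpf2, a histone-reading subunit of canonical BAF, were called higher by 0.23, 0.26, 0.30 and 0.18. Phf10, another PBAF subunit, went the other way and read 1286, 1330.4, 1255 and 1324 in TB13, 909, 926, 894 and 913 in TB14 and 1226, 1160.5, 1153 and 1198 in Trib1. TB14 lay below both other lines on every array, and TB13 lay above Trib1. The TB14 log2 change was -0.37 ± 0.023 (1.30-fold lower, adjusted p = 7.25e-10, limma), and the TB13 change of 0.13 was turned to -0.21 in the deposited values. Brd7, of PBAF, was lower in TB13 under all 5 scalings (-0.20) with its call lost after calibration (-0.040), and Brd9, of the non-canonical form, was at -0.38 in TB13 and -0.15 in TB14 (adjusted p = 0.105, limma), its TB13 value turning to 0.079 after calibration.

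Of the accessory BAF subunits, Actl6a, an actin-like protein of progenitor cells, rose and Bcl7b fell in TB14. Actl6a read 419, 409.7, 424 and 384 in TB13, 595, 581, 593 and 604 in TB14 and 425, 421, 457 and 428 in Trib1. TB14 stood above both other lines on every array, and the others overlapped. Its TB14 log2 change was 0.44 ± 0.034 (1.36-fold, adjusted p = 8.17e-09, limma), whereas a dimmer second probe set gave -0.23. The TB13 value of -0.079 was called and lost its call when TB13 array 2 or 4, TB14 array 1 or 3, or Trib1 array 3 or 4 was left out. Bcl7b read 118, 103, 105 and 74.5 in TB13, 117, 117, 113 and 122 in TB14 and 146, 149, 152 and 152 in Trib1. Both Bcl11a lines lay below Trib1 on every array and overlapped each other. The log2 change was -0.32 ± 0.090 in TB14 (adjusted p = 0.00751) and -0.54 ± 0.090 in TB13 (adjusted p = 3.87e-05; SE, limma), the TB13 value turning to 0.072 after calibration on controls. Its relatives differed from it. Bcl7a read 123, 164, 136 and 174 in TB13, 133, 139, 138 and 132 in TB14 and 125, 127, 119 and 127 in Trib1. Bcl7c read 232, 187, 197 and 176 in TB13, 215, 219, 212 and 210.5 in TB14 and 181, 185, 188 and 186 in Trib1. TB14 lay above Trib1 for both genes. Bcl7c was called (0.20, adjusted p = 0.0132, limma) and Bcl7a was not (0.11, adjusted p = 0.300, limma). In TB13 Bcl7a was at 0.23, turned to -0.41 in the deposited values. Over all 18 BAF genes tested, 9 were called higher and 3 lower in TB14 (23.0% and 20.9% of all genes), and 10 higher and 5 lower in TB13 on the quantile scale (42.0% and 38.3% of all genes).

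**Figure D3:**
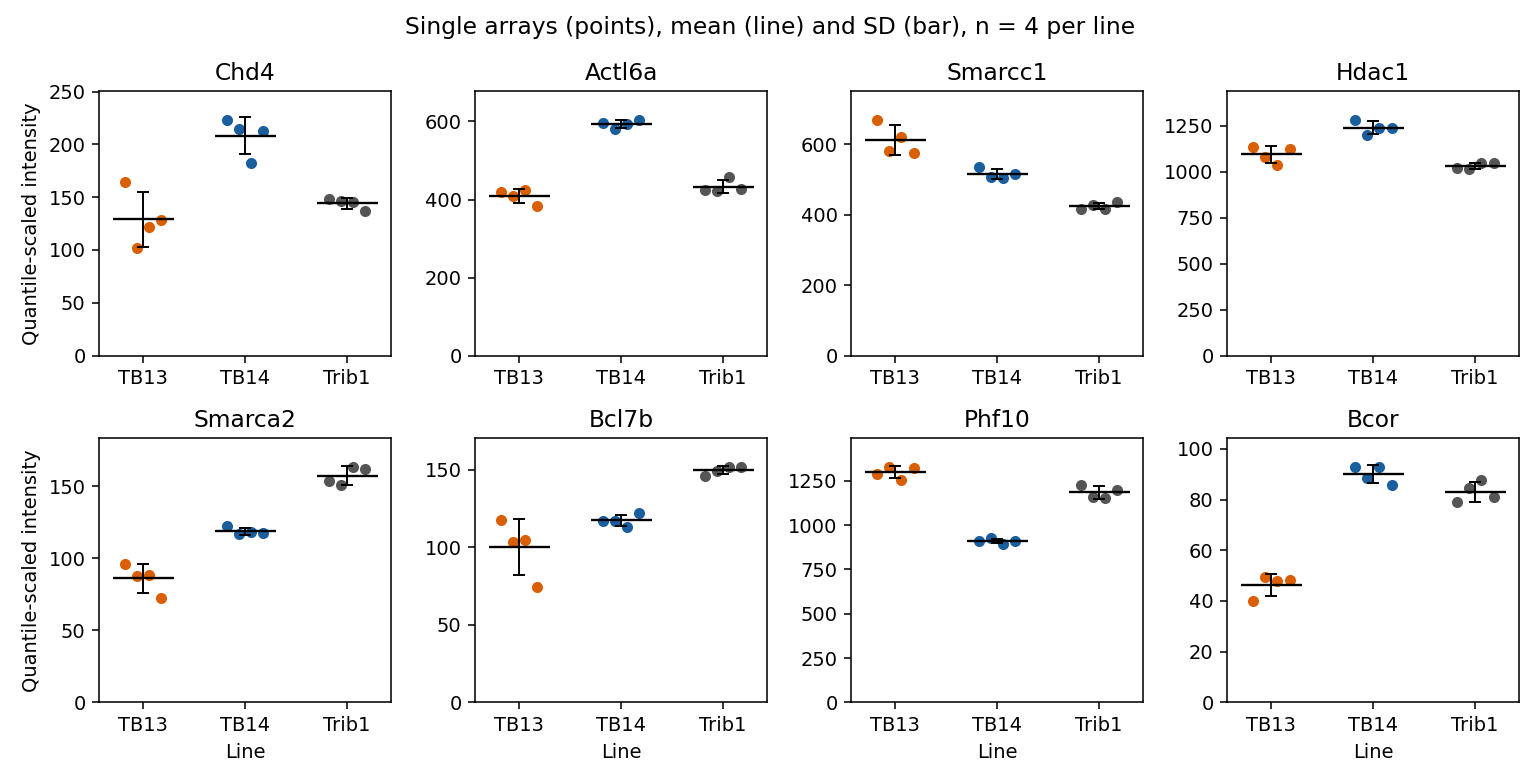
Quantile-scaled intensity of 8 complex genes on each array (points) with the line mean and SD (n = 4), TB13 and TB14 left of Trib1. TB14 lies above Trib1 on every array for Chd4, Actl6a, Smarcc1 and Hdac1 and below it for Smarca2, Bcl7b and Phf10, and TB13 is apart from the other lines for Bcor. Of all tested genes, 55.9% had no overlap between TB14 and Trib1 arrays, and 71.5% had none between TB13 and Trib1 arrays.

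Probe sets of the same gene gave a further reading. Of the 38 genes, 20 had other probe sets that passed the filter, 32 in all, and 22 of the 32 had the sign of the brightest one in TB14 but only 10 of 32 in TB13. For Sin3a, the others gave 0.51 and 0.27 in TB14 beside 0.18, and -0.79 and -0.82 in TB13 beside 0.09. For Tbl1x, both others were positive in TB14, unlike its brightest. Only 1 probe set passed for the NuRD genes Hdac1, Hdac2, Chd3, Chd4, Mta1, Mta2, Mbd3, Rbbp4 and Rbbp7. The same held for Bcor and for the BAF genes Smarcb1, Smarcc2, Smarcd1, Dpf2, Brd7, Brd9, Phf10 and Bcl7b. No second reading was at hand for these genes.

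**Figure D4:**
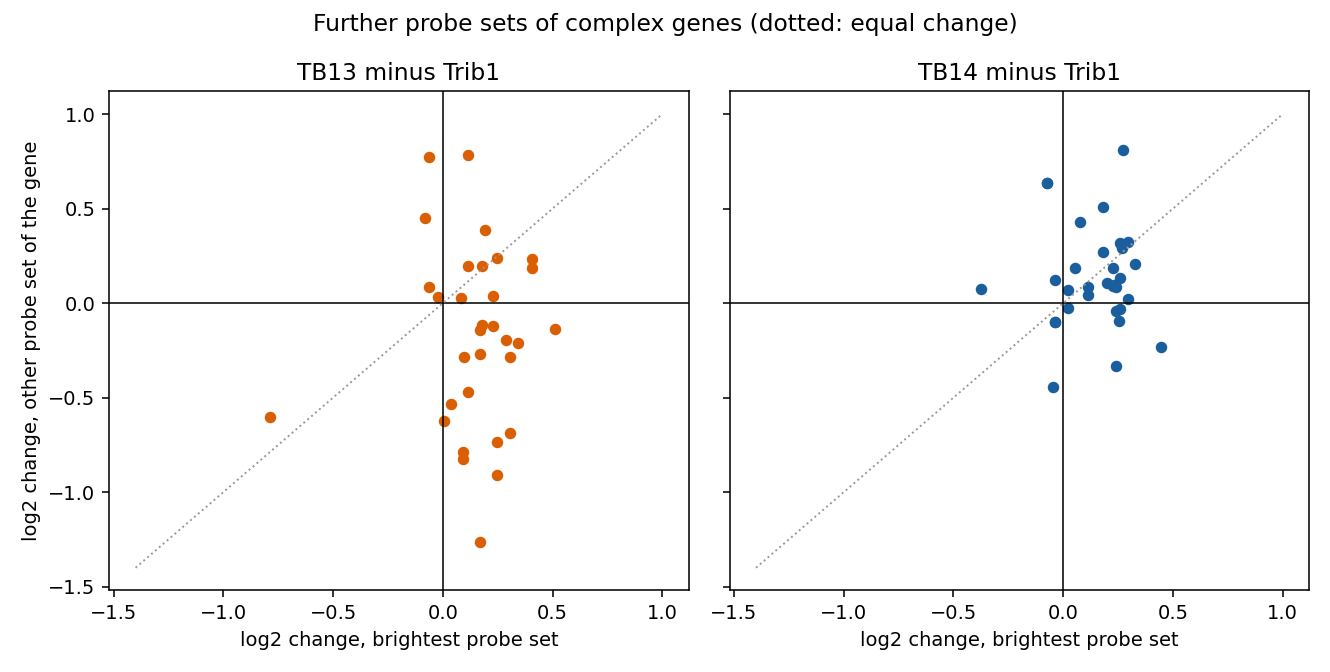
Log2 change against Trib1 of 32 further probe sets (vertical) beside the brightest probe set of the same gene (horizontal), for TB13 (left) and TB14 (right); the dotted line marks equal change. In TB14 22 points share the sign of the brightest probe set, and in TB13 10 do.

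Between the 2 Bcl11a lines, 20 of the 38 genes were called higher and 10 lower in TB14 than in TB13 on the quantile scale, where 39.0% of all genes were called higher and 41.1% lower. Calibration on controls turned the split to 9 and 20, and the shares of all genes called after that calibration were not computed. Only Bcor and Chd4 were called with a rise of 1.5-fold or more and 0 with such a fall, against 11.4% and 13.4% of all genes. Chd4 changed by 0.65 and Phf10 by -0.51 on the log2 scale, and both kept their direction under the 5 scalings. With both Bcl11a lines averaged against Trib1, 25 genes were called higher and 6 lower (38.6% and 31.7% of all genes). The deposited values gave 2 and 27, again without computed shares of all genes. At 1.5-fold or more 0 were called either way, against 4.29% of all genes for rises and 5.75% for falls.

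Other subunits and partners of these complexes were counted in the same fit. Of 56 listed, 44 were tested, and 14 (31.8%) were called higher and 4 (9.09%) lower in TB14, with a median log2 change of 0.053, where 23.0% and 20.9% of all genes were called. In TB13, 15 (34.1%) were called higher and 18 (40.9%) lower on the quantile scale, where 42.0% and 38.3% of all genes were called. These counts became 9 and 33 on the deposited values (29.0% and 63.6% of all genes). After calibration on controls they were 38 and 4 (73.8% and 11.4% of all genes). The largest rises in TB14 were those of Gfi1, a repressor that recruits CoREST in myeloid cells, at 1.52, the corepressor gene Ctbp2 at 0.68 and the CoREST-associated Zmym2 at 0.46. The largest falls were those of Gps2, of NCoR, at -0.21, Pcgf1, which acts with Bcor in a Polycomb complex, at -0.21, a call lost without Trib1 array 1 or TB14 array 1 or 4, and the zinc-finger gene Zfp217 at -0.20. In TB13, the class IIa deacetylase gene Hdac7 was 1.05 higher, Chd5, a remodeller related to Chd4, 0.85 and Rcor2, a relative of Rcor1, 0.49, each positive under all 5 scalings. Pcgf1 at -1.30 and the SIN3-associated Arid4b at -0.72 were negative under all 5 scalings in TB13, and Gps2 at -0.71 turned to 0.16 after calibration on controls. Arid4b had 5 probe sets and Hdac7, Ctbp2 and Zmym2 had 2 each, of which only the brightest is given here.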

How the data were processed

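Total RNA of 12 samples, 4 for each of 3 lines grouped by their labels, was measured on arrays with 45141 probe sets. The deposited values are linear intensities that the authors made with MAS5, per the submitters' processing notes; its version and scaling target were not given in the sources used here. By the platform annotation 28898 probe sets had 1 gene symbol, 551 several and 15588 none, and those with 1 were named. Control probe sets (104) were not tested.

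Arrays were quantile scaled because the TB13 arrays differed in their controls. Probe sets above their array's median on at least 4 arrays were kept (17480), the brightest stood for its gene (11223 genes), and log2(intensity + 12.8) was fitted, 12.8 being the 25th percentile, so log2 changes understate those of dim genes. All arrays entered 1 limma fit (R 4.3.3, limma 3.58.1) with a variance trend and Benjamini-Hochberg adjustment over all genes. A gene was called at an adjusted p under 0.05, two-sided. Median SD within a line was 0.075, and 4 arrays per line limit the precision. In simulated data for TB14 against Trib1, over 11223 genes, 62% of 1.2-fold and 96% of 1.5-fold changes were called. Only 50 genes were changed at each fold, whereas 23.0% of genes were called higher and 20.9% lower in the data. Each simulated gene also had the same spread in every line. These shares therefore do not give the sensitivity in the measured data.

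The set of members, the other lists and the scaling were chosen with earlier results of these data known. Named genes were all members, the introduced genes, and up to 3 other subunits with the largest called rise and fall in each line. Alternatives covered scaling, filter, pseudocount, probe set, variance model, single arrays and a replicate block. Replicate numbers recur across lines, but same-numbered arrays did not deviate together (r from -0.091 to 0.099).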

Additional observations from a re-analysis of the deposited data

Results flagged for a closer look

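Single arrays stood away from the other 3 of their line in 4 of 114 gene and line combinations, where chance gives about 1 in 20. Bcor read 40.0 on TB13 array 1 against 48.0 to 49.4 on the other TB13 arrays. Smarce1 read 643 on TB14 array 1 against 669 to 673 on the others. Kdm1a read 775 on Trib1 array 2 against 749 to 753, and Mta2 read 289 on Trib1 array 1 against 296 to 297.

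In all, 4 of the 38 genes were called in opposite directions against Trib1 in the Bcl11a lines, and the lines were compared directly by limma. The share of all tested genes called in opposite directions was not computed, so the 4 cannot be read as many or few. TB14 minus TB13 was 0.26 for Hdac2, 0.23 for Rbbp4, 0.52 for Actl6a and -0.51 for Phf10 on the log2 scale, each called. Since the TB13 signs of all 4 turned under at least 1 other scaling, the opposition with Trib1 depends on how the TB13 arrays are scaled.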

How the results depend on the processing

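The deposited values reversed the TB13 signs of Hdac1 (-0.31), Chd3 (-0.095), Mta1 (-0.29), Mta2 (-0.60), Mta3 (-0.48), Mbd2 (-0.64), Rbbp7 (-0.074), Gatad2a (-0.53), Gatad2b (-0.39), Tbl1x (-0.42), Tbl1xr1 (-0.44), Sin3a (-0.66), Kdm1a (-0.32), Smarcb1 (-0.62), Smarcc1 (-0.13), Smarce1 (-0.61), Arid1a (-0.53), Arid2 (-0.55), Dpf2 (-0.27), Pbrm1 (-0.52), Phf10 (-0.21), Bcl7a (-0.41) and Bcl7c (-0.66). Median changes became -0.54 in TB13 and -0.18 over both lines, and calls higher and lower became 2 and 35 in TB13, 2 and 27 over both lines, and 35 and 2 for TB14 minus TB13. Calibration on controls reversed TB13 values of Hdac2 (0.00059), Chd4 (0.36), Mbd3 (0.17), Rbbp4 (0.048), Sin3b (0.12), Rcor1 (0.067), Bcor (0.36), Smarcc2 (0.40), Brd9 (0.079), Bcl7b (0.072), Actl6a (0.072) and Gps2 (0.16), and for TB14 minus TB13 Bcor (-0.24) and the median (-0.19), leaving 0 lower calls in TB13, 2 over both lines, and 9 higher and 20 lower for TB14 minus TB13. Centring on medians reversed Mta2 (-0.027), Mbd2 (-0.062), Rbbp4 (0.11), Sin3a (-0.082), Smarcb1 (-0.045), Smarce1 (-0.037) and Bcl7c (-0.081) in TB13, and cyclic loess Mbd2 (-0.020). In TB14 the signs of Tbl1xr1, Smarcd1, Smarcd2 and Brd7, none of them called, turned under at least 1 scaling, at values between -0.053 and 0.016. Averaging probe sets reversed Mbd2 (-0.31), Gatad2a (-0.38), Tbl1x (-0.22), Tbl1xr1 (-0.29), Sin3a (-0.51), Rcor1 (0.26), Smarce1 (-0.25), Arid1a (-0.095) and Actl6a (0.19) in TB13, where the sign of Sin3b, called under neither, turned too, Gatad2a (-0.012) and Tbl1x (0.40) in TB14, and Actl6a (-0.082) for TB14 minus TB13, with 15 lower calls in TB13 and 11 over both lines. Under the alternatives in this paragraph, shares of all genes called were computed only for TB13 against Trib1. They were 29.0% higher and 63.6% lower on the deposited values, and 73.8% and 11.4% after calibration on controls. The other counts here cannot be set against those of all genes. The cause of these shifts was not tested.

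TB14 counts held within 21 to 25 higher and 3 to 5 lower over the 5 scalings, with 5 lower after cyclic loess, and were 27 and 5 without the TB13 arrays (33.2% and 30.7% of all genes), where Mbd2, Mbd3, Gatad2b, Bcor and Bcl7a joined the higher calls and Tbl1x and Brd9 the lower ones. A 1.5-fold threshold left 0 and 2 in TB13, 0 and 0 in TB14 and over both lines, and 2 and 0 for TB14 minus TB13. With each line's mean as 1 sample, 0 and 0 were called over both lines by limma, and 0 at an unadjusted p under 0.05. Leaving out single arrays gave 20 to 22 higher and 7 to 10 lower in TB13, 21 to 23 and 3 to 5 in TB14 (5 without TB13 array 4), 22 to 26 and 6 to 7 over both lines, and 18 to 21 and 9 to 11 for TB14 minus TB13. The replicate block gave 21 and 9, 22 and 3, 25 and 6, and 19 and 10 in the same order, for numbers that do not pair the arrays. Shares of all genes called were not computed for the other TB14 scalings, the line means, the fits without single arrays or the replicate block. Counts under those settings cannot be set against all genes.

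Levels of dim genes are limited by background, each line is a single line, and no second probe set passed the filter for Chd4, Phf10 and Bcl7b.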
